A study of Sus scrofa with 30 samples.

Results

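In the pig, the corpus luteum formed after ovulation secretes progesterone. It is kept in early pregnancy, whereas in a cycle without conceptuses prostaglandin F2α from the endometrium ends its life (luteolysis) and progesterone falls. Endometrial groups in which a functional corpus luteum is expected were therefore set against the cyclic groups at or after luteolysis. The luteal groups were days (D) 12, 16 and 20 of pregnancy (PD12, PD16 and PD20) and D12 of the estrous cycle (CD12), together 20 libraries, and the late cyclic groups were D16 and D20 of the cycle (CD16 and CD20), together 10 libraries. These 30 libraries are all the libraries of the series. Luteal state was inferred from reproductive status and day and was not measured, so values of all 6 groups are given.

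All animals were Hampshire x Duroc crossbred gilts of one commercial herd, 7 to 8 months old, and each library holds the small RNA of the endometrium of 1 animal. PD20 held 6 animals, CD12 held 4, and each of the other groups held 5. Uteri were flushed for conceptuses up to D16. PD20 differs in its sampling, since it is tissue of attachment sites with the conceptus dissected away. The 2 classes thus differ in status and day too: pregnant animals occur in the luteal class alone, and no late cyclic animal was sampled on D12.

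A microRNA (miRNA) is a short RNA of about 22 bases that pairs with messenger RNAs, mainly through its seed (bases 2 to 8), and lowers their translation or stability. An isomiR is a form of a miRNA that is longer (ADD) or shorter (DEL) at its 5' or 3' end by the number of bases stated. An isomiR changed at its 5' end carries another seed. Reads of 873 annotated sequences were counted by exact match, of which 178 were canonical miRNAs and 550 isomiRs placed on a canonical sequence. Pig names are given without a prefix, and hsa, cgr and ggo mark names taken from human, Chinese hamster and gorilla. A name such as mir-20a 23 nt is that of a precursor for which no canonical sequence was listed. Deposited reads per library ran from 2029729 to 6402731, and group medians from 2456804 (PD16) to 3409701 (CD12). Levels are counts for each 1000000 annotated reads after TMM scaling (CPM), shown as mean ± SD over animals, with n as above. In a bulk library, fewer cells of a type and less RNA per cell cannot be told apart.

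Libraries that stood apart are named before the comparisons. Replicate 1 of PD20 had a summed level of 399277 CPM for the 5 markers of stroma and smooth muscle (most abundant miR-143), where no other luteal library exceeded 155064 CPM, and 40186 CPM for the striated muscle markers, of which miR-1 was the most abundant and miR-133a, miR-133b and miR-208b had no annotated sequence. Replicate 5 of CD16 had 16765 CPM for the striated muscle markers, where the other CD16 libraries had 2035 to 3392 CPM. It also had the highest level of miR-205 3' ADD 1 (90.9 CPM). Replicates 1 and 2 of CD20 carried most of the differences of CD20 described below. The endometrial make-up of the libraries was otherwise visible in all 10 epithelial markers, which were found in both classes with a summed luteal median of 18043 CPM and a late cyclic median of 14432 CPM. Of the 6 leukocyte markers, miR-223 had no annotated sequence, and none of the 9 embryonic markers was listed under its name. The sequence ENSSSCG00000026728 22 nt, measured as miR-302 by RT-PCR in the study, had reads in all 6 libraries of PD20 and otherwise only in replicates 1 (0.757 CPM) and 5 (0.476 CPM) of CD20.

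The sequences on which the class difference turned were those of miR-205, a miRNA of epithelial cells that, with the miR-200 family, represses the transcription factors ZEB1 and ZEB2 and so helps to keep the epithelial state. They are shown because the annotated forms and 2 deposited forms outside the annotated list share one 5' end. All are written 5' to 3' as deposited DNA letters, with the seed in capitals.
miR-205: tCCTTCATtccaccggagtctg
miR-205 3' ADD 1: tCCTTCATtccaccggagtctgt
miR-205 3' DEL 1: tCCTTCATtccaccggagtct
miR-205 with A added: tCCTTCATtccaccggagtctga
miR-205 with C added: tCCTTCATtccaccggagtctgc

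In the fit with 1 mean per group, the mean of CD16 and CD20 differed from the mean of the 4 luteal groups for 2 of 873 sequences (0.229%). A call needed a log2 fold change (log2FC) beyond 1 in size and a p under 0.05 after Benjamini-Hochberg adjustment, from edgeR's quasi-likelihood F-test. Both were forms of miR-205 and both were higher in the late cyclic groups. On D16 and D20 alone, pregnant against cyclic, 14 sequences were called. Before adjustment, 69 sequences (7.90%) were higher and 63 (7.22%) lower in the late cyclic groups with p under 0.05, and the median log2FC of all sequences was 0.02. No sequence had all 10 late cyclic libraries above, or all below, the 20 luteal libraries (0 of 873).

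Canonical miR-205 had 10.3, 2.06, 3.70, 1.70 and 3.53 CPM in the animals of PD12. In PD16 the values were 1.52, 4.72, 1.55, 1.86 and 0.952 CPM and in CD12 they were 2.19, 0.512, 1.91 and 4.95 CPM. In PD20 it ran from 0 to 1.77 CPM with a median of 0.174 CPM, and it had no reads in 3 of the 6 animals and at most 3 in the others. In the late cyclic animals the values were 2.15, 5.55, 27.4, 11.6 and 20.7 CPM in CD16 and 10.6, 10.2, 15.8, 7.24 and 21.9 CPM in CD20. All 10 late cyclic libraries lay above the luteal median of 1.73 CPM, 6 of them above the highest luteal library (PD12 replicate 1), and 9 above the luteal library next to it. The group means were 4.26 ± 3.50 (PD12), 2.12 ± 1.49 (PD16), 0.467 ± 0.696 (PD20), 2.39 ± 1.86 (CD12), 13.5 ± 10.5 (CD16) and 13.2 ± 5.78 CPM (CD20). The canonical form reached the abundance limit the study set for annotation (10 reads in at least 4 animals of a group) in CD16 and CD20 only. It is thus in the list through the groups where it was high, and its tests within the list are conditioned on that. The limit of the fit of all 33081 deposited sequences, 10 reads over the 30 libraries together, takes no account of groups. In that fit the log2FC was 2.99 for the class (edgeR adjusted p = 9.69e-05), 2.98 for CD16 (edgeR adjusted p = 0.00384) and 2.99 for CD20 (edgeR adjusted p = 0.000608). Within the list, the class difference was a log2FC of 2.91 (SE 0.396, edgeR adjusted p = 1.87e-05). Tested one by one against the same luteal libraries, the late cyclic groups gave 2.92 (SE 0.461, edgeR adjusted p = 0.000341) for CD16 and 2.90 (SE 0.462, edgeR adjusted p = 0.000139) for CD20. The difference between CD20 and CD16 was -0.02 (SE 0.604, edgeR adjusted p = 0.985), which leaves room for either order. Against a floor of 3 reads per library in PD20 (1.19 CPM), the mean was at least 11.3-fold higher in CD16 and at least 11.02-fold higher in CD20.

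Form 3' ADD 1 was the most abundant of the annotated miR-205 sequences, with 1366 of their 2123 reads. It had 19.9, 14.4, 58.0, 35.7 and 90.9 CPM in CD16 and 22.3, 27.5, 31.7, 23.4 and 53.8 CPM in CD20, against a luteal range of 1.25 to 30.96 CPM with a median of 7.87 CPM. Of the late cyclic libraries 5 of 10 exceeded the highest luteal library (again PD12 replicate 1), so the classes overlapped. Means were 13.5 ± 10.5 (PD12), 11.3 ± 6.17 (PD16), 4.26 ± 4.19 (PD20), 9.73 ± 3.36 (CD12), 43.8 ± 31.3 (CD16) and 31.7 ± 12.9 CPM (CD20). The log2FC was 2.07 (SE 0.328, edgeR adjusted p = 0.000183). This form reached the abundance limit in all groups but PD20. Separately it was 2.31 for CD16 (edgeR adjusted p = 0.000552) and 1.84 for CD20 (edgeR adjusted p = 0.00382).

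Form 3' DEL 1 had a level in CD12 (6.06 ± 2.58 CPM) close to that of CD16 (6.03 ± 5.27 CPM), and 9.90 ± 3.21 CPM in CD20. In the pregnant groups it had 3.85 ± 5.25 (PD12), 1.90 ± 1.13 (PD16) and 1.22 ± 0.685 CPM (PD20). Its class difference did not pass the test (log2FC 1.48, SE 0.399, edgeR adjusted p = 0.139), and became a call without PD12 replicate 1 (1.79, edgeR adjusted p = 0.00542), whose 13.1 CPM was the highest luteal value. Against the luteal groups the log2FC was 1.85 for CD20 (edgeR adjusted p = 0.0150) and 1.11 for CD16 (edgeR adjusted p = 0.340). This form reached the abundance limit in CD12 and CD20 only, and with all deposited sequences the CD20 call was lost (1.87, edgeR adjusted p = 0.143).

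**Figure D1:**
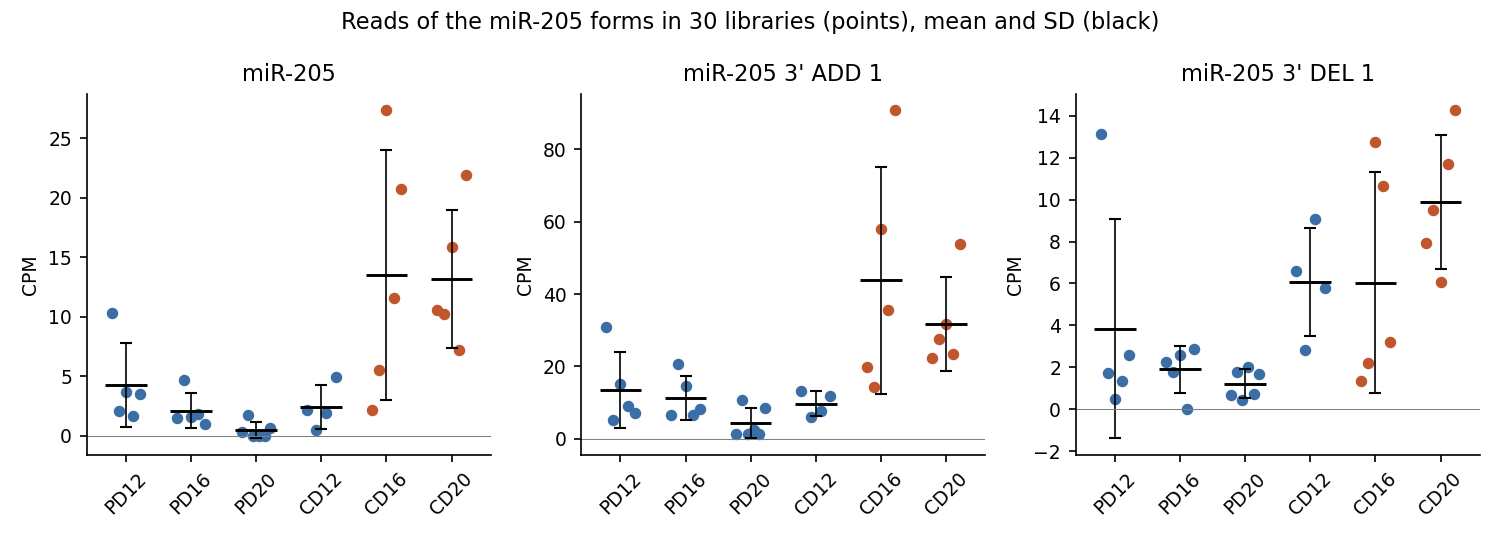
Level (CPM) of 3 annotated miR-205 forms in each of 30 libraries (points) by group, with the group mean (line) and SD (bar). Luteal groups are blue and late cyclic groups orange. Canonical miR-205 averaged 13.5 CPM in CD16 and 13.2 CPM in CD20 and at most 4.26 CPM in a luteal group, and the 3' DEL 1 form was as high in CD12 as in CD16.

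Summed over the 3 annotated forms, 733 reads came from the 20 luteal and 1390 from the 10 late cyclic libraries, that is 23.7 (PD12), 14.7 (PD16), 5.12 (PD20), 13.6 (CD12), 58.1 (CD16) and 59.8 (CD20) reads for each 1000000 annotated reads. Such counts are low, and the depth of these libraries limits the precision of any single value. Deposited sequences with at least 10 reads that begin with the first 17 bases of miR-205 numbered 16, of which 13 were outside the annotated list and held 1248 further reads. Their total with the annotated forms was 25.04 ± 17.3 CPM in luteal and 89.2 ± 44.6 CPM in late cyclic libraries (n = 20 and 10). By group the total was 34.8 ± 27.7 (PD12), 28.8 ± 9.03 (PD16), 11.1 ± 8.05 (PD20), 29.1 ± 8.21 (CD12), 91.7 ± 61.2 (CD16) and 86.8 ± 26.7 CPM (CD20). In a fit of all 33081 deposited sequences with at least 10 reads, 8 were called in the class comparison, all higher in the late cyclic groups, and 4 of the 8 were miR-205. The forms with A added (453 reads, log2FC 1.98, SE 0.401, edgeR adjusted p = 0.0390) and C added (311 reads, log2FC 2.25, SE 0.449, edgeR adjusted p = 0.0361) were called beside the 2 annotated ones.

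The choice of luteal groups moved the size of the miR-205 difference. Without PD20, where miR-205 was lowest, the log2FC of the canonical form was 2.25 (edgeR adjusted p = 0.00624), and on D16 and D20 alone, pregnant against cyclic, it was 3.77. Within the cycle, that is CD16 and CD20 against CD12, it was 2.48 with an edgeR adjusted p of 0.0996, so it did not pass the threshold in this comparison without pregnant animals, which called 4 other sequences. The 3' ADD 1 form had 1.94 there, also with an edgeR adjusted p of 0.0996, and the 3' DEL 1 form had 0.35 (edgeR adjusted p = 0.783). The 4 luteal groups themselves differed in canonical miR-205 (joint edgeR test, adjusted p = 0.0440). They differed in 54 of 873 sequences in all (6.19%), and in 27 without PD20 replicate 3 or CD12 replicate 4, so the luteal class was not uniform.

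An additive model asked how far the late cyclic groups lie from the level that status and day predict without an interaction. It called 1 sequence (0.115%), canonical miR-205, with a log2FC of 4.49 (SE 0.965, edgeR adjusted p = 0.0441). That term is a limited one: the call was lost in 20 of 30 fits that left out 1 library (values 3.83 to 5.20), among them those without PD12 replicate 1 or PD20 replicate 1. It was also lost with all deposited sequences (edgeR adjusted p = 0.104), with the replicate number as a block (edgeR adjusted p = 0.375) and with the label number as a block (edgeR adjusted p = 0.0748). The 3' ADD 1 form did not pass in this model (log2FC 2.93, edgeR adjusted p = 0.181). The additive call is therefore given as a description. In the class comparison itself, leaving out any single library kept both calls, with a log2FC of 2.72 to 3.12 for the canonical form. The RT-PCR of miR-205 in the study matched its sequencing pattern for the days of pregnancy only, with lower levels in PD20 than in PD12 and PD16. By that account the sequencing pattern of the cyclic groups was not reproduced.

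The other epithelial lists gave no call in the class comparison. Of 16 annotated sequences of miR-203 and miR-205, the 3 of miR-205 were higher at an unadjusted p under 0.05 and 10 of the other 13 were lower, and the list median was -1.01. Those 10 were 9 forms of hsa-miR-203a and ggo-miR-203b, that is of miR-203, a miRNA of differentiating epithelium that represses the transcription factor p63, and none passed adjustment. Canonical hsa-miR-203a averaged 532 ± 589 (PD12), 117 ± 20.7 (PD16), 387 ± 204 (PD20), 281 ± 404 (CD12), 109 ± 27.8 (CD16) and 141 ± 44.5 CPM (CD20), with a class log2FC of -1.20 (SE 0.407, edgeR adjusted p = 0.200). Levels were high in some luteal libraries, up to 1393 CPM, and the luteal median of 141 CPM lay inside the late cyclic range of 65.4 to 214 CPM. The miR-200 family had 31 sequences with a median log2FC of 0.17 and 1 of them higher at an unadjusted p under 0.05. Over all sequences these shares were 7.90% higher and 7.22% lower. Summed over its 10 markers, epithelium had 18337 ± 4885 (PD12), 20989 ± 5317 (PD16), 19354 ± 4575 (PD20), 16294 ± 2129 (CD12), 19370 ± 5865 (CD16) and 12588 ± 2305 CPM (CD20). The sum was lowest in CD20, where its abundant members mir-182 (3897 CPM), mir-200c (3208 CPM) and, except for CD12, mir-200b (3714 CPM) were below the luteal means. Other epithelial markers were, like miR-205, above all 4 luteal means in CD20, namely mir-200a (332 CPM, luteal means 214 to 249 CPM) and mir-96 (123 CPM, luteal means 51.6 to 75.5 CPM), and mir-141 and mir-429 were above 3 of the 4. The part of cell make-up in these differences was not tested.

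Sums over a seed gave 2 calls among 258 seeds (0.775%), 1 higher (0.388%) and 1 lower (0.388%). The seed CCTTCAT, held by the miR-205 forms alone, had a log2FC of 2.08 (SE 0.316, edgeR adjusted p = 5.12e-05). This sum includes the canonical form, listed through CD16 and CD20 only, and 3' DEL 1, listed through CD12 and CD20 only. Its test is conditioned in part on that. The other called seed, ACCCTGG of a single isomiR of miR-504, was lower in the late cyclic groups. A further seed, AAACATC of 2 isomiRs of miR-30a-5p, passed the adjusted p but not the fold limit (-0.74, SE 0.185, edgeR adjusted p = 0.0314). Of these 2, the 3' ADD 3 form was listed through PD12 only. The 5' isomiRs of miR-504 and miR-30a-5p are shown because each starts 1 or 2 bases inside the canonical miRNA and so carries another seed (capitals).
miR-504 5' DEL 1 3' DEL 1: gACCCTGGtctgcactctatc
miR-30a-5p 5' DEL 2 3' ADD 2: tAAACATCctcgactggaagct
miR-30a-5p 5' DEL 2 3' ADD 3: tAAACATCctcgactggaagctg

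The miR-504 isomiR seed averaged 8.07 ± 4.36 (PD12), 4.16 ± 2.21 (PD16), 2.26 ± 0.844 (PD20), 10.1 ± 4.75 (CD12), 1.68 ± 0.888 (CD16) and 2.59 ± 1.71 CPM (CD20) on the scale of seed sums. It was high on D12 of both states and low on the later days of both, with PD20 between CD16 and CD20. The groups through which this isomiR was listed are not given here. Its test may therefore be conditioned on the D12 luteal groups, where it was high. Its class log2FC was -1.36 (SE 0.341, edgeR adjusted p = 0.0314) and the call was lost in 16 of 30 fits that left out 1 library. The AAACATC seed averaged 27.1 ± 7.86 (PD12), 25.8 ± 3.54 (PD16), 30.7 ± 10.9 (PD20), 20.8 ± 6.83 (CD12), 17.5 ± 4.64 (CD16) and 13.7 ± 1.44 CPM (CD20), so both late cyclic means were the lowest of the 6.

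Several families held sequences mostly on one side of the class comparison, none of them called in it. Of 53 miR-30 sequences, 16 were lower and 0 higher in the class comparison at an unadjusted p under 0.05, with a median log2FC of -0.29. The most abundant was miR-30a-5p 3' ADD 2 with -0.58 (SE 0.192, edgeR adjusted p = 0.192). Of 18 sequences of miR-21, a miRNA abundant in many tissues and known to target PDCD4, 9 were lower and 0 higher, with a median of -0.58, and canonical miR-21 had -0.57 (SE 0.263, edgeR adjusted p = 0.307). On the other side, 13 of 37 sequences of miR-10 and miR-196, which lie in the HOX clusters, were higher and 0 lower (median 0.54), and so were 11 of 43 of miR-99, miR-100 and miR-125, with 0 lower (median 0.54). The most abundant of the latter, miR-99a 3' DEL 1, had a class log2FC of 1.07 (SE 0.406, edgeR adjusted p = 0.228). In CD20 alone, 1 miR-30 sequence was called higher and 3 lower, and 1 of the miR-10 and miR-196 sequences was called higher, beside 6.76% higher and 1.49% lower among all sequences. Of the 3 lower, miR-30a-5p 5' DEL 2 3' ADD 3 reached the abundance limit of the annotation in PD12 only, so its call is conditioned on a luteal group. The counts before adjustment stand beside backgrounds of 7.90% higher and 7.22% lower among all sequences. IsomiRs are forms of one miRNA measured in the same animals, so they are not separate observations.

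CD16 alone differed from the luteal groups in 2 sequences (0.229%), the same forms of miR-205, with 58 sequences higher (6.64%) and 66 lower (7.56%) at an unadjusted p under 0.05. CD20 alone differed in 72 (8.25%), of which 59 were higher (6.76%) and 13 lower (1.49%), and before adjustment 142 were higher (16.3%) and 71 lower (8.13%) with p under 0.05. Tested against each other in the same fit, CD20 and CD16 differed in 64 sequences (7.33%), 50 higher (5.73%) and 14 lower (1.60%) in CD20. They differed in 4, 7 and 5 without CD20 replicate 1, CD20 replicate 2 or CD16 replicate 5. Without both of these CD20 replicates they differed in 2, and with all deposited sequences in 1. The luteal libraries are shared by both comparisons with the luteal groups. Of the 59 sequences higher in CD20, 3 reached the abundance limit of the annotation in CD20 only (miR-132, miR-221-3p 3' ADD 2 and miR-146a-5p 3' ADD 1 form 2).

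The 72 calls of CD20 rested largely on its replicates 1 and 2, and 11 annotated sequences were called when all deposited sequences were tested. There were 45 calls with the replicate number as a block and 19 with the label number as a block. Without replicate 1 there were 10 calls, without replicate 2 there were 13, and without both 1 was left, canonical miR-205, which is listed through CD16 and CD20 only. The 3' ADD 1 form was no longer called without both (log2FC 2.03, edgeR adjusted p = 0.0731). Of the 72 sequences, 61 kept the direction without both libraries, and the median absolute log2FC of the 72 went from 1.41 to 0.76. Over the 59 sequences called higher, the median difference from the luteal level (log2 of CPM + 1) was 2.29 and 1.71 in replicates 1 and 2, and 0.67, 0.51 and 0.53 in replicates 3, 4 and 5. Of the 59, the number above the highest luteal library was 50, 41, 18, 3 and 10 in replicates 1 to 5. Values of the 5 CD20 libraries are therefore printed from replicate 1 to 5.

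**Figure D2:**
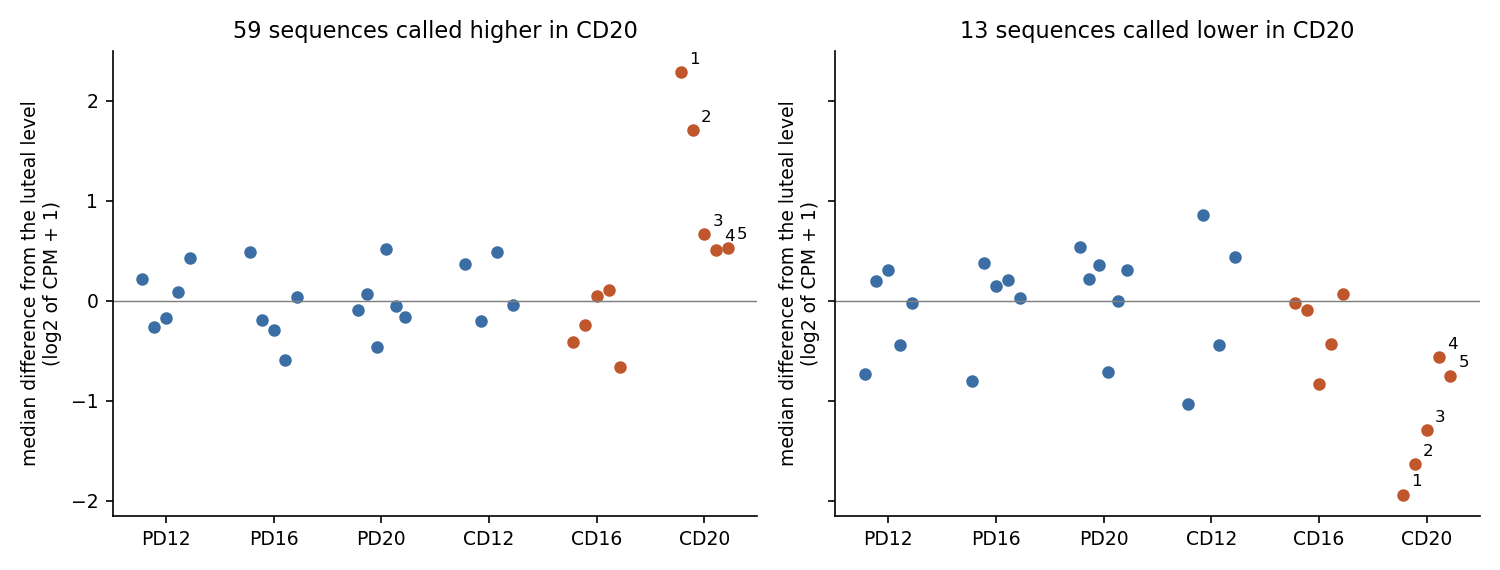
Median difference of each library (point) from the luteal level, as log2 of CPM + 1, over the 59 sequences called higher (left) and the 13 called lower (right) in CD20, by group. Numbers mark the replicates of CD20. Replicates 1 (2.29) and 2 (1.71) stand above the other 3 CD20 libraries (0.51 to 0.67) on the left, and all 5 lie on one side of 0 in each panel, a direction that the choice of sequences on these libraries fixes.

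The sequences that led the CD20 calls are shown by seed, since several of them belong to one family and pair with the same targets. Capitals mark the seed.
miR-17-5p: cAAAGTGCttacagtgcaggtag
mir-20a 23 nt: tAAAGTGCttatagtgcaggtag
cgr-miR-106b-5p: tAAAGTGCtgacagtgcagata
miR-16: tAGCAGCAcgtaaatattggcg
miR-195 3' ADD 1: tAGCAGCAcagaaatattggca
mir-212 21 nt: tAACAGTCtccagtcacggcc
miR-132: tAACAGTCtacagccatggtcg
mir-29a 22 nt form 2: tAGCACCAtctgaaatcggtta
miR-146a-5p: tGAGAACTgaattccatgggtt

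The seed AAAGTGC is that of the miR-17 family, whose clusters are driven by MYC and E2F and which targets the cell cycle inhibitor CDKN1A. miR-17-5p had 244, 174, 83.8, 42.9 and 55.7 CPM in CD20 and 13.96 to 36.6 CPM in CD16. Luteal libraries ran from 16.2 to 64.1 CPM with a median of 26.9 CPM, so 3 of the CD20 libraries lay above all of them. Group means were 28.9 ± 8.47 (PD12), 25.4 ± 5.59 (PD16), 34.3 ± 16.1 (PD20), 23.4 ± 2.52 (CD12), 22.9 ± 8.35 (CD16) and 120.2 ± 86.2 CPM (CD20). The log2FC against the luteal groups was 2.12 for CD20 (SE 0.274, edgeR adjusted p = 6.99e-06) and -0.27 for CD16 (edgeR adjusted p = 0.7104). mir-20a 23 nt, the most abundant of these sequences, had 2548, 1980, 1219, 713 and 690 CPM in CD20 against a luteal median of 531 CPM and a maximum of 936 CPM. Its log2FC was 1.51 (SE 0.251, edgeR adjusted p = 0.000211). cgr-miR-106b-5p had 225, 58.2, 5.12, 22.3 and 15.2 CPM, so that replicate 1 held most of its mean of 65.2 ± 91.7 CPM and replicates 3, 4 and 5 lay within the luteal range of 4.16 to 34.9 CPM. Its log2FC of 2.59 (SE 0.406, edgeR adjusted p = 0.000139) was 1.21 (edgeR adjusted p = 0.148) without replicate 1. Of 31 sequences of the miR-17 clusters, 5 were called higher and 1 lower in CD20, beside 6.76% and 1.49% of all sequences, and the median log2FC was -0.04, beside 0.04 over all sequences.

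The seed AGCAGCA belongs to the miR-15/16 family, which targets cyclins and BCL2. Of the 15 sequences listed for this family, not all of them with that seed, 8 were called higher in CD20 (6.76% of all sequences were) and 0 lower. Their median log2FC was 1.14 in CD20 and -0.34 in CD16. miR-16 had 1054, 445, 113, 86.3 and 131 CPM in CD20 against a luteal median of 93.9 CPM (55.5 to 209). Only replicates 1 and 2 exceeded the luteal range, and without both the log2FC went from 1.73 (SE 0.363, edgeR adjusted p = 0.00294) to -0.01. miR-195 3' ADD 1 had 527, 229, 109.9, 67.9 and 135 CPM against a luteal range of 22.3 to 126 CPM (log2FC 1.54, SE 0.325, edgeR adjusted p = 0.00294).

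The pair miR-132 and miR-212 comes from one locus that is transcribed under the cAMP responsive factor CREB, and it shares the seed AACAGTC. Of its 3 annotated sequences, miR-132 reached the abundance limit of the annotation in CD20 only and is left out of the count. The other 2, both mir-212, were called higher in CD20 (6.76% of all sequences were) and not in CD16. mir-212 21 nt had 10.98, 19.04, 13.96, 10.02 and 18.6 CPM in CD20, and 4 of these 5 lay above the luteal maximum of 10.6 CPM. Replicates 3 and 5 were as high here as replicates 1 and 2. Group means were 3.66 ± 3.04 (PD12), 7.25 ± 3.89 (PD16), 6.51 ± 1.71 (PD20), 1.26 ± 0.570 (CD12), 1.71 ± 1.42 (CD16) and 14.5 ± 4.18 CPM (CD20). The log2FC was 1.91 for CD20 (SE 0.393, edgeR adjusted p = 0.00294) and -1.09 for CD16 (SE 0.511, edgeR adjusted p = 0.340). The CD12 libraries (0.412 to 1.64 CPM) overlapped with those of CD16 and with the lowest of PD12 and PD16. With all deposited sequences the CD20 log2FC was 2.05 (edgeR adjusted p = 0.0254). miR-132 had 3.03, 20.1, 11.2, 11.7 and 5.71 CPM in CD20, given as a description since it is listed through that group only.

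Among regulators of matrix and inflammation, all 4 forms of mir-29a, whose family targets collagens, were called higher in CD20 (6.76% of all sequences were). Their median log2FC was 1.53 in CD20 and 0.05 in CD16. The 23 nt form reached the abundance limit in PD20 only. The most abundant, mir-29a 21 nt, had 91.3, 64.9, 64.7, 59.6 and 30.5 CPM in CD20 against a luteal maximum of 70.5 CPM. Its log2FC of 1.27 (SE 0.263, edgeR adjusted p = 0.00294) was 1.05 (edgeR adjusted p = 0.0684) without CD20 replicate 1. With all deposited sequences it was 1.35 (edgeR adjusted p = 0.124). mir-29a 22 nt form 2 had 84.8, 64.2, 48.4, 23.9 and 12.9 CPM in CD20 against luteal values of 2.75 to 39.6 CPM (log2FC 1.86, SE 0.338, edgeR adjusted p = 0.000828). miR-146a-5p, induced by NF-κB and known to target IRAK1 and TRAF6, had 298, 209, 341, 232 and 199 CPM in CD20 and a mean of 66.2 ± 31.02 CPM in CD16. The luteal groups averaged 98.8 ± 54.3 (PD12), 114 ± 39.5 (PD16), 149 ± 73.7 (PD20) and 106.6 ± 35.2 CPM (CD12). All 5 CD20 libraries lay above the luteal median and 2 above the luteal maximum of 270.3 CPM. The log2FC was 1.15 for CD20 (SE 0.287, edgeR adjusted p = 0.0126) and -0.80 for CD16 (SE 0.327, edgeR adjusted p = 0.269). The CD20 call of miR-146a-5p was lost without CD20 replicate 1 (1.03, edgeR adjusted p = 0.142) and without replicates 1 and 2 (1.15, edgeR adjusted p = 0.259). It was also lost with all deposited sequences (1.21, edgeR adjusted p = 0.162). The isomiR miR-146a-5p 3' ADD 1 form 2 was the 1 sequence of 873 (0.115%) with every CD20 library above every luteal library, at 7.24 to 8.33 CPM against at most 6.70 CPM. It reached the abundance limit of the annotation in CD20 only and so was listed because it was high there, and nothing is drawn from its separation. Without it, 4 of 11 sequences of miR-146 and miR-155 were called higher in CD20, beside 6.76% of all sequences.

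**Figure D3:**
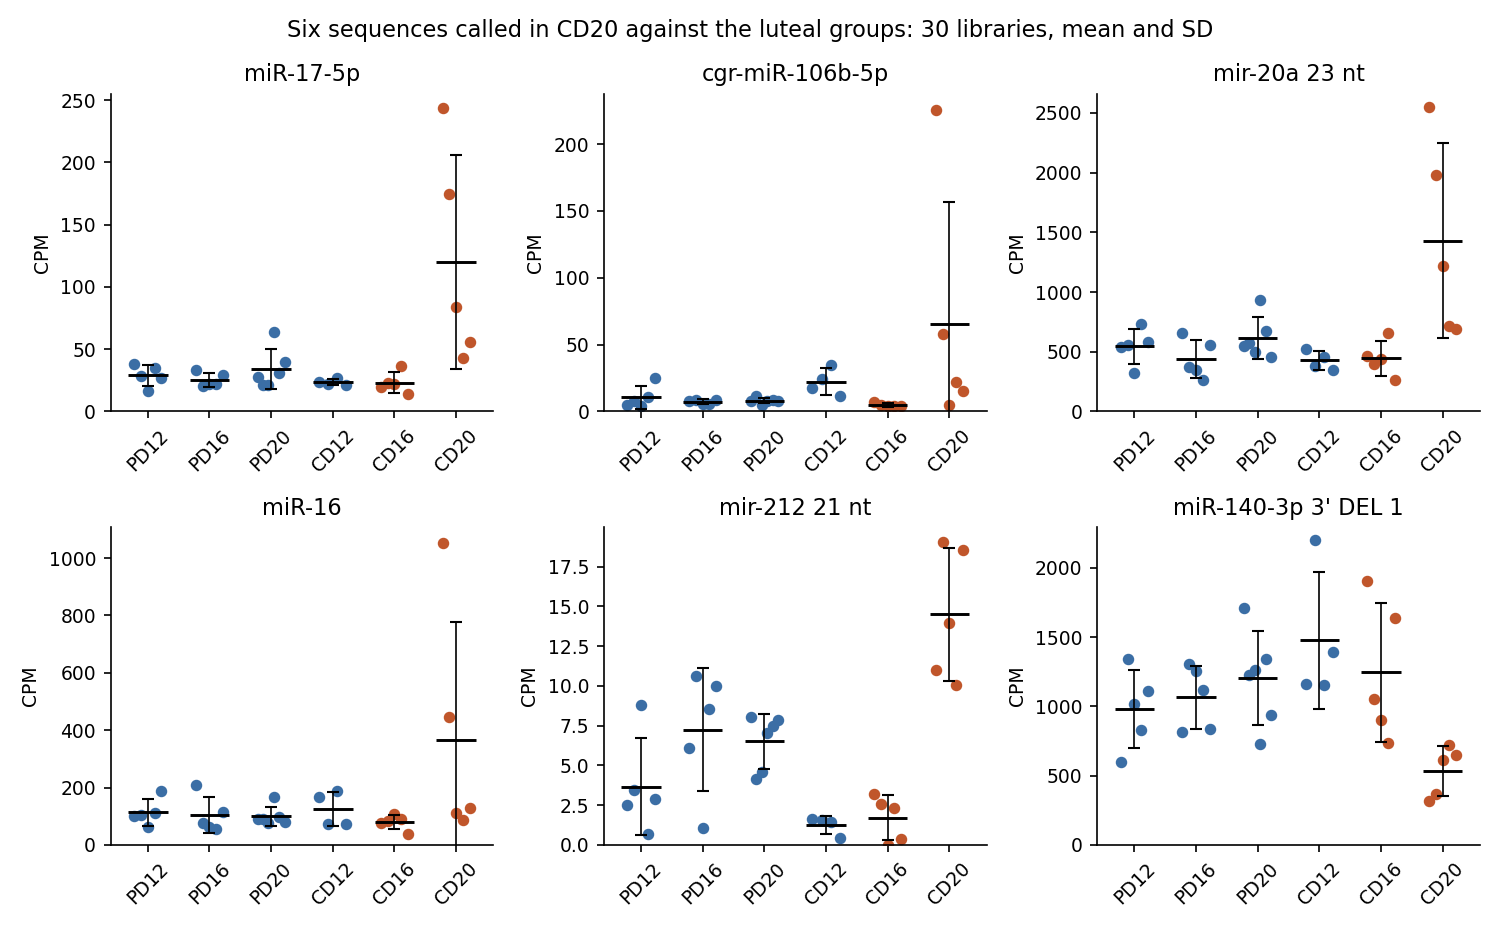
Level (CPM) of 6 sequences in each of 30 libraries (points) by group, with mean (line) and SD (bar), luteal groups in blue and late cyclic groups in orange. miR-17-5p, cgr-miR-106b-5p, mir-20a 23 nt and miR-16 are drawn up by 2 or 3 libraries of CD20, mir-212 21 nt is high in all 5 of them (10.02 to 19.04 CPM), and miR-140-3p 3' DEL 1 is low in CD20 with 534 CPM on average.

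Summed markers of leukocytes, endothelium and epithelium lay outside the range of the luteal group means in CD20, and other sets lay within it. Stroma and smooth muscle had 61187 CPM in CD20 (luteal means 51339 to 118790 CPM). Erythrocyte markers had 1076 CPM (luteal means 972 to 2190 CPM) and striated muscle markers 3082 CPM (luteal means 2415 to 9980 CPM). The leukocyte markers summed to 787, 486, 625, 476 and 419 CPM in CD20, of which miR-146a was the most abundant, against group means of 392 (PD12), 294 (PD16), 386 (PD20), 444 (CD12) and 294 CPM (CD16). The leukocyte marker mir-342 had 118 CPM in CD20, between PD16 (60.5 CPM) and PD20 (73.8 CPM) on one side and PD12 (202 CPM) and CD12 (236 CPM) on the other. Without the isomiR miR-146a-5p 3' ADD 1 form 2, 5 of 18 leukocyte sequences were called higher in CD20 (6.76% of all sequences were), miR-142-3p among them (36.7, 13.7, 6.05, 7.80 and 3.81 CPM, log2FC 1.43, edgeR adjusted p = 0.0298). Only replicates 1 and 2 exceeded its luteal maximum of 12.1 CPM. Summed over its 4 sequences, mir-142 had 57.7 CPM in CD20 and 61.0 CPM in PD20, with 24.3 to 46.1 CPM in the other luteal groups. The endothelial miR-126 summed to 4836, 4381, 4584, 4956 and 4264 CPM in CD20 against a luteal median of 3385 CPM, and 3 of its 17 sequences were called higher. The epithelial markers summed to 10094, 10066, 14662, 13913 and 14203 CPM in CD20, the lowest group mean, but single markers lay on both sides, as described above. Their part in the differences of CD20 was not tested.

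The 13 calls lower in CD20 included forms of miR-140-3p, a miRNA known from cartilage that is also expressed in endometrium. It is shown with its forms because 3 of them keep the seed of the canonical sequence and the last does not.
miR-140-3p: tACCACAGggtagaaccacggac
miR-140-3p 3' DEL 1: tACCACAGggtagaaccacgga
miR-140-3p 3' ADD 1: tACCACAGggtagaaccacggaca
miR-140-3p 5' DEL 2 3' DEL 1: cCACAGGGtagaaccacgga

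Of 17 sequences of miR-140, 4 were called lower in CD20 (1.49% of all sequences were) and 0 higher, with a median log2FC of -0.84 in CD20 and 0.11 in CD16. miR-140-3p 3' DEL 1 had 320, 368, 611, 725 and 648 CPM in CD20 against a luteal range of 600.5 to 2201 CPM with a median of 1157 CPM. Replicates 1 and 2 lay below all luteal libraries and the other 3 at their lower end. Group means were 980 ± 282 (PD12), 1066 ± 228 (PD16), 1201 ± 339 (PD20), 1477 ± 495 (CD12), 1247 ± 501 (CD16) and 534 ± 179 CPM (CD20), with a log2FC of -1.13 for CD20 (SE 0.275, edgeR adjusted p = 0.0121) and 0.10 for CD16 (SE 0.252, edgeR adjusted p = 0.893). The canonical form had 49.99, 89.9, 218, 365 and 400 CPM in CD20 (log2FC -1.45, SE 0.416, edgeR adjusted p = 0.0261). The 3' ADD 1 form had -1.67 (SE 0.465, edgeR adjusted p = 0.0210). The 5' DEL 2 3' DEL 1 form, with the seed CACAGGG, had -1.08 (SE 0.305, edgeR adjusted p = 0.0229), and 4 of 5 CD20 libraries lay below every luteal library. Further calls lower in CD20 included let-7f 3' ADD 2 form 1 (-1.76, SE 0.451, edgeR adjusted p = 0.0150, mean 1.18 CPM in CD20). With all deposited sequences it had -1.66 (edgeR adjusted p = 0.317). This let-7f isomiR reached the abundance limit of the annotation in PD12 and CD16 only, so its tests against CD20 are conditioned on groups where it was high. Within the miR-30 family 3 sequences were called lower, of which canonical miR-30d had -1.35 (SE 0.432, edgeR adjusted p = 0.0432). Another of the 3, miR-30a-5p 5' DEL 2 3' ADD 3, reached the limit in PD12 only, so its call is conditioned in the same way.

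**Figure D4:**
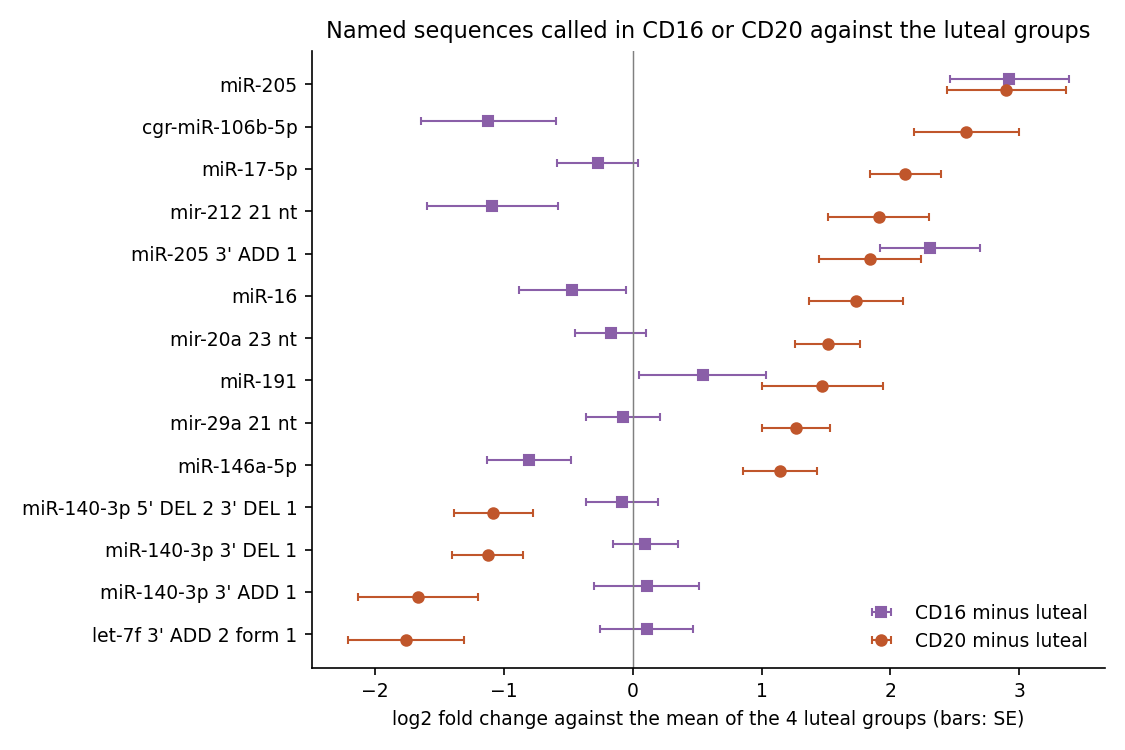
The log2FC against the mean of the 4 luteal groups, with SE, of the named sequences called in CD16 or CD20 (CD16 purple squares, CD20 orange circles). Among the sequences drawn, only the 2 miR-205 forms lie far from 0 to the same side in both groups (2.92 and 2.90 for the canonical form). A shorter miR-205 form, described above, is not among the sequences drawn. It was also higher in both groups, and was called in CD20 but not in CD16. Both groups were compared with the same luteal libraries.

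Lists without a clear direction in CD20 were let-7 (61 sequences, 0 called higher and 1 lower in CD20, median -0.19), miR-148 with miR-152 (26 sequences, 0 calls, median -0.11) and the imprinted DLK1-DIO3 cluster (39 sequences, 2 called higher, median 0.00). Of all sequences, 6.76% were called higher and 1.49% lower in CD20. Medians over all sequences were 0.04 in CD20 and -0.06 in CD16. The hypoxia-induced miR-210 was represented by 1 sequence, with 1.45 ± 0.990 CPM in CD20 and 3.65 ± 2.49 CPM in CD16 and a log2FC of -1.28 in CD20 (SE 0.491, edgeR adjusted p = 0.104).

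**Figure D5:**
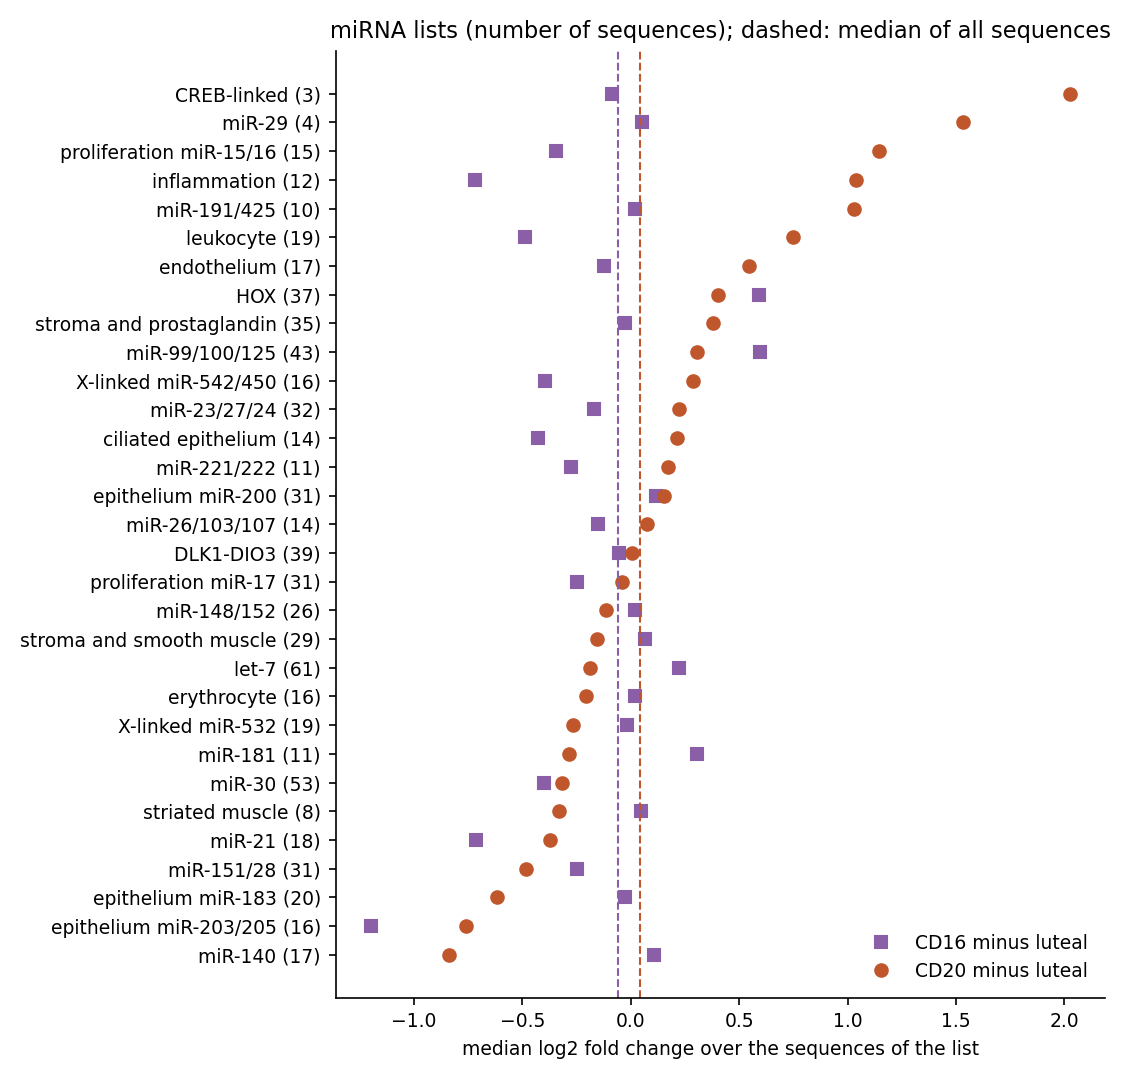
Median log2FC over the sequences of each miRNA list (number of sequences in brackets) for CD16 (purple squares) and CD20 (orange circles) against the luteal groups, with the medians of all sequences as dashed lines. The topmost list, of miR-132 and miR-212, holds miR-132, which is listed through CD20 only. Below it miR-29 (1.53) and miR-15/16 (1.14) are highest in CD20, where miR-140 (-0.84) is lowest, and the lists of HOX miRNAs and of miR-99, miR-100 and miR-125 lie to the right in both groups.

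Of 6 measures of library make-up, none passed an adjusted p of 0.05 between the classes. The share of reads on annotated sequences was 79.7% ± 3.10 in the late cyclic and 78.9% ± 2.02 in the luteal libraries (n = 10 and 20). The mean read length was 22.29 nt ± 0.0774 in the late cyclic and 22.40 nt ± 0.121 in the luteal libraries, a difference of -0.106 nt (two-sided permutation test with 100000 resamples, p = 0.0186, adjusted over 6 measures 0.111). Without PD20 replicate 1 this difference was -0.117 nt and passed (adjusted permutation p = 0.0442).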

How the data were processed

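Total RNA of each endometrium was made into a small RNA library (NEXTflex kit) and sequenced on a Genome Analyzer GAIIx in 3 pools, whose members are not given in the sources used here. For each library the authors deposited raw read counts per distinct sequence of 17 to 31 nt, after quality filtering and adapter removal. These counts were not annotated or normalized. Counts were joined by exact match to the 873 sequences that the study had annotated with BLAST against Sscrofa10.2 and miRBase, and 776 of them had reads in every library. The list rests on an abundance limit per group, which 854 of the 873 met on recount. Names follow the study. Genomic positions were not used here. IsomiR ends were read from an overlap of at least 12 bases with the canonical sequence.

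Library sizes were the annotated reads, scaled by TMM. Group means of 6 groups were fitted in edgeR 4.0.16 (R 4.3.3; glmQLFit, glmQLFTest) to all 30 libraries, and the contrasts weighed groups equally. The limits for a call were 0.05 for the adjusted p and 1 for the size of the log2FC. The SE is the log2FC divided by the square root of F. Reads per library ranged from 2029729 to 6402731, so that 3 reads correspond to about 1 CPM, and PCR copies are not independent molecules. Alternatives were DESeq2 1.42.0, edgeR's likelihood ratio test, other scalings, an abundance filter, other sets of groups, blocks and each library left out. The blocks were the replicate number and the running number in the library label, taken in 3 ranges (label number). The comparison of CD20 with CD16 and the fits without replicates 1 and 2 of CD20 were added after the data had been seen. Members and lists were chosen with earlier results of these data known. Named sequences were the called ones with the smallest p (up to 12 in each direction for the class, 4 for other contrasts), the most abundant of each list, called seeds and the sequences of the RT-PCR of the study. Sequences named beyond this rule, such as miR-132, miR-195 3' ADD 1, miR-142-3p and the canonical miR-140-3p, were chosen after their values were seen.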

Additional observations from a re-analysis of the deposited data

Results flagged for a closer look

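The difference between CD20 and CD16, tested in the same fit, passed the limits for 10 named sequences, among which the values were 2.39 for miR-17-5p, 3.71 for cgr-miR-106b-5p, 1.69 for mir-20a 23 nt, 1.95 for miR-146a-5p, 3.00 for mir-212 21 nt, 2.20 for miR-16 and 1.35 for mir-29a 21 nt (log2 of CD20 over CD16, edgeR adjusted p under 0.05). It was -1.22 for miR-140-3p 3' DEL 1, -1.78 for miR-140-3p 3' ADD 1 and -1.87 for let-7f 3' ADD 2 form 1, which reached the abundance limit of the annotation in PD12 and CD16 only and is given as a description. The 64 calls of this comparison fell to 4 without CD20 replicate 1, 7 without CD20 replicate 2 and 5 without CD16 replicate 5. There were 2 calls without both of these CD20 replicates and 1 with all deposited sequences.

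Among deposited sequences, 6 outside the annotated list were called higher in the late cyclic groups when all 33081 deposited sequences were tested. Their log2FC values were 3.71, 2.33, 3.62 and 3.15 for sequences not named here, and 1.98 and 2.25 for miR-205 with A or C added.

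Single libraries lay far from the rest of their group in 9 of 162 groups checked, and chance flags about 1 in 20. The gap to the nearest library as a share of the group's range, on log2(CPM + 1) for sequences, was 0.769 for miR-140-3p 3' ADD 1 in PD16 replicate 1 (lowest) and 0.673 in PD20 replicate 4 (lowest). It was 0.900 for miR-140-3p 5' DEL 2 3' DEL 1 in CD12 replicate 2 (highest), 0.626 for miR-148a-3p in PD20 replicate 4 (lowest), 0.705 for miR-1 in PD20 replicate 1 (highest) and 0.702 for miR-191 in PD20 replicate 4 (highest). It was 0.904 for hsa-miR-203a in CD12 replicate 1 (highest), 0.755 for miR-205 3' DEL 1 in PD16 replicate 4 (lowest, no reads) and 0.768 for the percent of reads of 22 nt in PD12 replicate 3 (lowest).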

How the results depend on the processing

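The class comparison gave 2 calls, and 4 with the likelihood ratio test, 5 with DESeq2, 1 with a mean of at least 10 CPM, 4 without CD12, 14 on D16 and D20 only, 4 within the cycle, 1 with isomiRs summed, 8 with all deposited sequences and 2 to 4 with 1 library left out (4 without PD12 replicate 1 or CD20 replicate 4). CD16 gave 2, and 4, 1, 1 and 7 with the likelihood ratio test, the 10 CPM filter, isomiRs summed and all deposited sequences (2 to 4 with 1 library left out). CD20 gave 72, and 41 with the 10 CPM filter, 45 with the replicate block, 19 with the label number as a block, 25 with isomiRs summed, 1 without replicates 1 and 2, and 10 to 100 with 1 library left out. CD20 vs CD16 gave 64, and 102 (likelihood ratio test), 104 (DESeq2), 40 (replicate block), 33 (isomiRs summed), 1 (all deposited sequences), 2 (without CD20 replicates 1 and 2) and 4 to 85. The additive model gave 1, 2 with the likelihood ratio test or DESeq2, and 0 with the 10 CPM filter, either block, isomiRs summed, all deposited sequences or without CD20 replicates 1 and 2 (0 to 2 with 1 library left out). The 4 luteal groups gave 54, and 127, 32 and 23 with the likelihood ratio test, 10 CPM filter and replicate block (27 to 74). Seeds gave 2, and 1 with RLE scaling or the replicate block (1 to 2). The replicate block kept both miR-205 class calls (2.88 and 2.11). Deviations of same-numbered libraries correlated at -0.019 on average (70 pairs), beside 0.0043 for different numbers (304 pairs), and 9 of 30 libraries correlated best with their own number. These values do not settle whether the numbers pair animals. miR-16 in CD20 turned to -0.014 without replicates 1 and 2. The read length difference ran from -0.120 to -0.0941 nt with 1 library left out, and passed without PD20 replicate 1. The causes were not tested. Scaling to all deposited reads moved the median log2FC to 0.14 (class), 0.22 (CD20) and, from 0.09, to 0.48 (additive model).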
